A study of Homo sapiens with 54 samples.

Results

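Colorectal cancer cells selected for resistance to 5-fluorouracil (5-FU) were compared between 2 populations, one labelled as resistant HT-29 and one labelled as resistant HCT-116, both after 24 h in 10 µM uracil, the control condition of the study. The members were the 3 libraries of each population, 6 of the 54 libraries of the series. HT-29 and HCT-116 are established human colorectal carcinoma lines. Both resistant populations were derived by the authors by growing the parental line in stepwise increasing 5-FU for months and keeping it in the drug afterwards, so each population is treated here as 1 selection; separate selections are not described. The same populations were also sequenced after 10 µM 5-FU and after 10 µM 5-FU with X-ray irradiation at the dose set for each line, again with 3 libraries each, and sensitive (never selected) HCT-116 in uracil gave the reference level, also with 3 libraries. The authors describe the work as done on biological replicates in triplicate. In bulk RNA, fewer cells of a kind and less RNA per cell cannot be told apart.

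5-FU is a uracil analogue that is converted inside the cell to fluorinated nucleotides, which block thymidylate synthase and enter RNA and DNA. Resistance is known to arise through changed drug activation, target level, repair, cell death and cell state, and separate selections from one line can take separate routes. KRAB zinc finger proteins (KZFPs), the family on which the study centred, bind DNA through arrays of C2H2 fingers and recruit the corepressor TRIM28 through the KRAB domain, and they are best known for silencing transposable elements. Most of their genes lie in clusters on chromosome 19.

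The label of the first population was not borne out by its RNA. Sensitive HCT-116 was marked by 46 genes (at least 10 TPM, the length-corrected transcript level of kallisto, in each of its uracil libraries and at most 0.1 TPM in those of sensitive HT-29 and DLD-1, a further colorectal line). Of these, 44 were at 1 TPM or more in each of the 3 libraries labelled resistant HT-29, against 44, 44 and 45 in the resistant HCT-116 libraries. None of the 5 markers of sensitive HT-29, among them GIPC2 and FAM3D, reached 1 TPM in any of the 6 libraries, and their summed level lay between 0.109 and 0.264 TPM. None of the 14 DLD-1 markers did so either. Over 21860 genes, the root mean square difference in log2(TPM + 1) between the populations averaged 0.508, against 0.413 and 0.402 between libraries within them. The libraries labelled resistant HT-29 lay at 0.569 from sensitive HCT-116 and at 1.296 from sensitive HT-29. Whether these libraries come from a further selection of HCT-116 or from an exchange of samples cannot be told apart here, so sensitive HCT-116 is used as a reference level and not as the known parent of both populations. The population is called the labelled resistant HT-29 population throughout, and the comparison is one between 2 resistant populations that carry the same line markers.

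The 6 libraries held between 42549303 and 58622933 estimated counts. Replicate 3 of resistant HCT-116 stood apart from the other replicates of its group. The chi-square of its gene counts against theirs, divided by the degrees of freedom, was 8.56 and 9.82, and that of all other replicate pairs of the 2 populations lay between 2.24 and 4.23. For the total and for the gene lists below, numbers of called genes are therefore also given without it where it moves them. Genes encoded by mitochondrial DNA took 10.6 to 11.4% of TPM in the labelled resistant HT-29 libraries and 11.8 to 12.95% in the resistant HCT-116 libraries.

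Of 23596 genes tested, 438 were higher and 439 were lower in labelled resistant HT-29 than in resistant HCT-116 at an adjusted p of at most 0.01 and a difference of at least 2-fold (quasi-likelihood test of edgeR, Benjamini-Hochberg adjusted). These are 1.86% and 1.86% of the genes tested in each direction and 3.72% in all. Genes that meet both limits are said to be called, and the counts in gene lists below are to be read against these shares. The median log2 fold change was 1.54 among the higher genes and -1.57 among the lower ones. Most called genes were of low or moderate level: 88 of the higher and 75 of the lower genes averaged 10 TPM or more in the population with more of them. By GENCODE 44 annotation, 322 of the higher and 309 of the lower genes were protein-coding and 27 and 39 were long non-coding RNAs. Without replicate 3 of resistant HCT-116, 509 genes were higher and 411 lower.

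**Figure D1:**
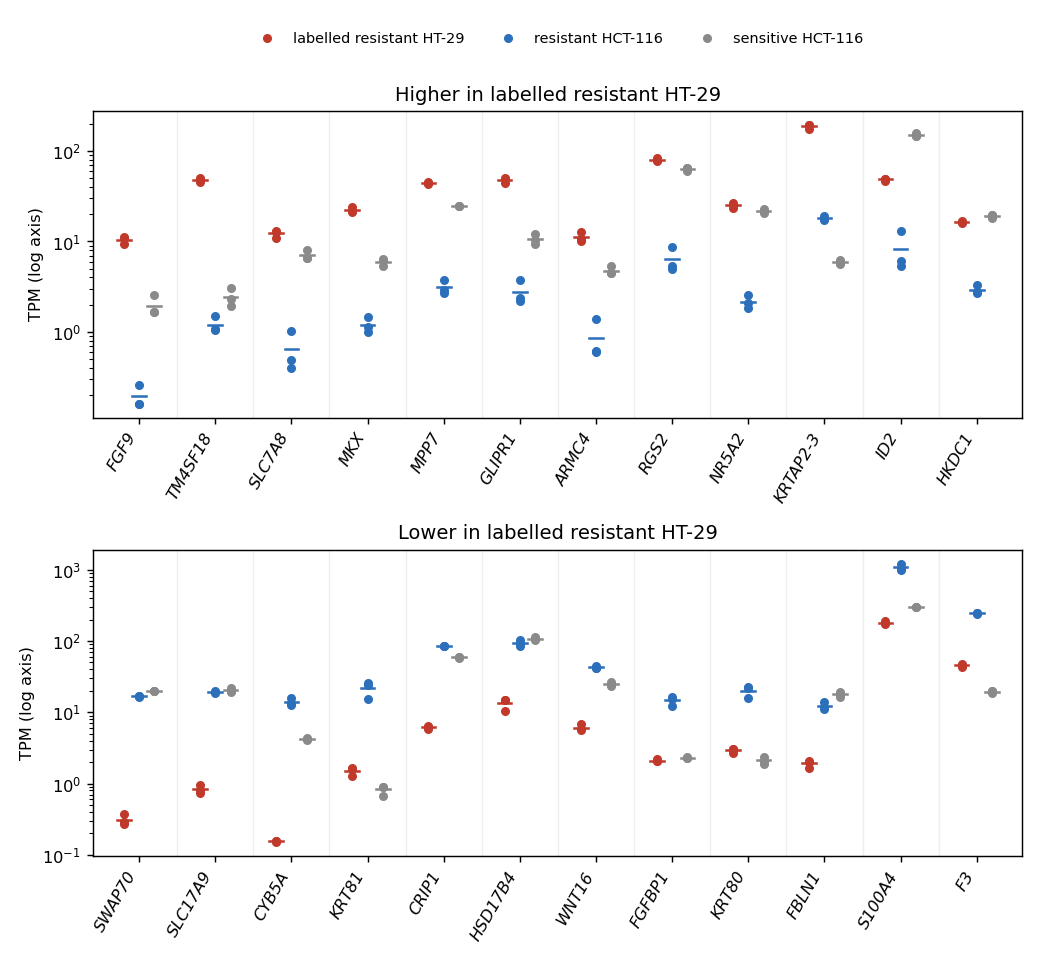
TPM (log axis) in each uracil library for the 12 protein-coding genes with the largest fold difference in each direction; points are libraries, short bars are means of 3, red is labelled resistant HT-29, blue resistant HCT-116 and grey sensitive HCT-116. The genes were chosen for having no overlap between red and blue points, and for SWAP70, SLC17A9 and HSD17B4 the blue and grey points lie together well above the red ones.

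Among well-expressed genes, the growth factor gene FGF9 (chr13:21671073-21704498, GRCh38) differed most in the higher direction. Its level was 11.3, 10.8 and 9.34 TPM in the 3 labelled resistant HT-29 libraries and 0.26, 0.161 and 0.162 TPM in the 3 resistant HCT-116 libraries. The groups were far apart, with a log2 fold change of 5.56 ± 0.16 (SE; edgeR adjusted p = 8.83e-22). Sensitive HCT-116 held 1.956 ± 0.52 TPM (SD, n = 3), so FGF9 stood above the sensitive HCT-116 level in one population and below it in the other. TM4SF18, a tetraspanin-like membrane protein gene on chromosome 3, was at 47.6, 50.5 and 45.97 TPM against 1.08, 1.05 and 1.49 TPM, a log2 fold change of 4.77 ± 0.12 (edgeR adjusted p = 2.37e-23), with 2.43 TPM in sensitive HCT-116. KRTAP2-3, a gene of the hair keratin-associated protein family, reached 192, 192 and 175 TPM against 17.6, 17.4 and 19.3 TPM (log2 fold change 3.28 ± 0.05), and sensitive HCT-116 held 5.90 TPM. GLIPR1, which encodes a secreted cysteine-rich protein, averaged 48.0 TPM against 2.77 TPM, with 10.6 TPM in sensitive HCT-116.

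A further set of the higher genes was close to the sensitive level in labelled resistant HT-29 and low in resistant HCT-116. RGS2, a regulator of G protein signalling, was at 76.9, 83.2 and 79.6 TPM in labelled resistant HT-29, at 5.36, 4.98 and 8.68 TPM in resistant HCT-116, and at 63.5 ± 2.4 TPM (SD, n = 3) in sensitive HCT-116. NR5A2, a nuclear receptor of gut and liver, averaged 25.1, 2.15 and 21.8 TPM in the same order. HKDC1, a hexokinase family member, averaged 16.3, 2.93 and 19.2 TPM, and SLC7A8, the light chain of a neutral amino acid transporter, 12.3, 0.641 and 7.06 TPM. ID2, an inhibitor of basic helix-loop-helix transcription factors, was lower than in sensitive HCT-116 (149.6 TPM) in both: it was at 46.7, 49.5 and 49.6 TPM in labelled resistant HT-29 and at 5.35, 6.11 and 13.01 TPM in resistant HCT-116, a log2 fold change of 2.56 ± 0.18 (edgeR adjusted p = 1.95e-12).

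In the lower direction, several genes were far below the sensitive level in labelled resistant HT-29 and near or above it in resistant HCT-116. SWAP70 encodes a guanine nucleotide exchange factor that acts on RAC. It was at 0.375, 0.285 and 0.271 TPM in labelled resistant HT-29 and at 16.3, 16.8 and 17.1 TPM in resistant HCT-116, so the groups were far apart. The log2 fold change was -6.46 ± 0.10 (edgeR adjusted p = 7.26e-28), sensitive HCT-116 held 19.9 TPM and sensitive HT-29 10.8 TPM. SLC17A9, the vesicular nucleotide transporter, was at 0.81, 0.957 and 0.749 TPM against 18.97, 19.9 and 18.4 TPM, with 20.3 TPM in sensitive HCT-116. CRIP1, a LIM domain protein, averaged 6.17 TPM against 85.6 TPM, and HSD17B4, the peroxisomal multifunctional enzyme of very long chain fatty acid oxidation, 13.3 TPM against 93.4 TPM. Their log2 fold changes were -3.84 ± 0.11 and -3.29 ± 0.06. FBLN1, an extracellular matrix fibulin, followed the same order with 1.93, 12.3 and 17.9 TPM in labelled resistant HT-29, resistant HCT-116 and sensitive HCT-116.

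The promoters of SWAP70 and HSD17B4 are shown because these genes stayed near the sensitive level in resistant HCT-116 and were far below it in labelled resistant HT-29. Each sequence runs from 250 bases before to 50 bases after the RefSeq start on GRCh38.p14, 5′ to 3′ on the gene's strand, with each CG dinucleotide in capitals. They lie at chr11:9663827-9664126 (plus strand) and chr5:119452247-119452546 (plus strand).
SWAP70: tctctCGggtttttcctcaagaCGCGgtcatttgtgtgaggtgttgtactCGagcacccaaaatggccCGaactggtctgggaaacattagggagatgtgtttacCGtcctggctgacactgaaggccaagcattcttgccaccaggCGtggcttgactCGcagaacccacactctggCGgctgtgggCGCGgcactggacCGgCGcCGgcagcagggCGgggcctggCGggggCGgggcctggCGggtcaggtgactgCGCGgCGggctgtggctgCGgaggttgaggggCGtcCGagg
HSD17B4: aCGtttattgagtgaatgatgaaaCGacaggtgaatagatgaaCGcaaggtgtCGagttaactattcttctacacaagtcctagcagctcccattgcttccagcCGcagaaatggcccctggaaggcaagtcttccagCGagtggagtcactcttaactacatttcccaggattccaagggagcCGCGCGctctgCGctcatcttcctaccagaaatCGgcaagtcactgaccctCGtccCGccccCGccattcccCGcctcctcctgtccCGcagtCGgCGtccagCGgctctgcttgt
They hold 24 and 19 CG dinucleotides. The median over the 13026 tested genes with a promoter in the RefSeq table was 24. It was 22.5 for the 264 higher genes and 13 for the 249 lower genes found there, so the lower genes as a group had fewer CG dinucleotides. Promoters with fewer than 5 were more frequent in both directions, at 17.4% of the higher and 21.3% of the lower genes against 10.5% of all tested genes. The sets were not matched for expression level. These values are descriptions of sequence, since no methylation was measured.

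Other lower genes were above the sensitive HCT-116 level in resistant HCT-116, or lay on either side of it. F3, which encodes tissue factor, the initiator of blood coagulation, was at 43.6, 45.6 and 47.5 TPM in labelled resistant HT-29 and at 244, 249.8 and 236 TPM in resistant HCT-116, against 19.6 ± 0.6 TPM (SD, n = 3) in sensitive HCT-116. Both resistant populations were thus above the sensitive level, resistant HCT-116 by more. S100A4, a calcium-binding protein linked to cell motility, was at 179, 188 and 175 TPM against 992, 1038 and 1201 TPM, with 300 TPM in sensitive HCT-116. FGFBP1, a carrier of fibroblast growth factors, averaged 2.11, 14.7 and 2.31 TPM in labelled resistant HT-29, resistant HCT-116 and sensitive HCT-116, and WNT16, a WNT ligand, 6.09, 42.7 and 24.6 TPM. CYB5A, microsomal cytochrome b5, averaged 0.155, 14 and 4.18 TPM. Its log2 fold change was -4.27 on gene counts and -6.53 with transcript-length offsets, and the call held with both.

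Across all called genes, the level in sensitive HCT-116 was set beside both populations on the log2(TPM + 0.1) scale, as a description without a test. Of the 438 genes higher in labelled resistant HT-29, the sensitive level was nearer to labelled resistant HT-29 for 332 (75.8%) and nearer to resistant HCT-116 for 106. Of the 439 lower genes, it was nearer to labelled resistant HT-29 for 231 (52.6%) and nearer to resistant HCT-116 for 208. The sensitive level lay above both resistant populations for 220 of the higher genes and for 132 of the lower genes. Against sensitive HCT-116, 605 genes were higher and 1146 lower in labelled resistant HT-29, and 1048 higher and 1525 lower in resistant HCT-116; these 2 comparisons share the sensitive libraries.

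KRT81, KRT80 and KRT7, of the type II keratin cluster on chromosome 12, were near the level of sensitive HCT-116 in labelled resistant HT-29 and well above it in resistant HCT-116. Keratins form the intermediate filaments of epithelial cells, and KRT8 and KRT18 are the standard pair of simple intestinal epithelium, whereas KRT7, KRT80 and the hair keratins KRT81, KRT83 and KRT86 are usually low there. Of 15 keratins tested, 4 (KRT81, KRT86, KRT80 and KRT7) were lower and 1 (KRT23) was higher in labelled resistant HT-29, and the median log2 fold change was -0.49 against -0.01 over all genes. KRT81 was at 1.62, 1.63 and 1.26 TPM in labelled resistant HT-29 and at 25.6, 24.3 and 15.3 TPM in resistant HCT-116, with 0.827 TPM in sensitive HCT-116, a log2 fold change of -3.94 ± 0.18 (edgeR adjusted p = 5.24e-17). KRT80 was at 3.06, 3.03 and 2.72 TPM against 22.7, 21.9 and 15.9 TPM, and sensitive HCT-116 held 2.11 TPM. KRT7 followed with 5.53, 5.24 and 6.42 TPM against 29.6, 26.96 and 20.2 TPM, and 4.34 TPM in sensitive HCT-116. In each of these genes replicate 3 of resistant HCT-116 was the lowest of its group, yet none overlapped with labelled resistant HT-29. KRT8 (822 against 1086 TPM) and KRT18 (442 against 582 TPM) differed by -0.49 and -0.48 on the log2 scale, under the 2-fold limit. KRT23, an acidic keratin on chromosome 17, averaged 28.9 TPM against 6.01 TPM, and sensitive HCT-116 held 4.56 TPM.

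The 4 keratins called lower lay beside each other. Between chr12:52164115 and chr12:52321398, 8 adjacent tested genes (LINC00592, KRT80, C12orf80, KRT7, KRT7-AS, KRT86, KRT81 and KRT83) were all called lower, with log2 fold changes from -3.94 (KRT81) to -1.48 (LINC00592). KRT7-AS and KRT86 overlap their neighbours, and hair keratin transcripts are similar in sequence, so the division of reads among them is an estimate. KRT83 and C12orf80 stayed under 1 TPM in every library of both populations.

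Genes of the hemidesmosome, the junction that anchors epithelial cells to laminin in the basement membrane, were also lower. Of 40 cell surface adhesion and matrix genes tested, 6 were lower and 1 was higher (17.5% called). Without replicate 3 of resistant HCT-116, 5 were lower and 1 was higher. COL17A1, the transmembrane collagen of the hemidesmosome, was at 0.793, 1.44 and 0.88 TPM against 6.41, 6.21 and 5.00 TPM. LAMB3, a laminin-332 chain, was at 6.59, 7.07 and 5.63 TPM against 24.5, 25.5 and 21.7 TPM, and sensitive HCT-116 held 7.54 TPM. LAMA3, its partner chain, averaged 0.623 against 2.00 TPM, and ITGB4, the integrin chain that binds it, 108 against 209 TPM. The log2 fold changes were -2.67 ± 0.10, -2.16 ± 0.07, -2.04 ± 0.12 and -1.08 ± 0.05 in this order. NECTIN4 and MCAM, which encode adhesion receptors, fell just past the limit at -1.21 and -1.004. CD24, a surface glycoprotein used as a colorectal progenitor marker, went the other way with 15.6, 13.38 and 17.6 TPM against 3.18, 2.40 and 5.52 TPM. The groups did not overlap in any of these genes, which adds little, since the genes were called on the same libraries.

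Of 29 mesenchymal transition genes tested, 4 were lower and 1 higher (17.2% called, against 3.72% of all genes). The lower ones were S100A4, the transcription factor TWIST1 (1.19 against 4.51 TPM), SNAI2 and the receptor kinase AXL (32.3 against 64.0 TPM). SNAI2, under 1 TPM in both, lost its call with DESeq2, with the replicate block and without replicate 3 of resistant HCT-116, among other settings. Of 30 list members tested without that replicate, 3 were lower and 1 was higher. COL6A3, a collagen VI chain, was higher at 0.85, 0.536 and 0.631 TPM against 0.106, 0.0449 and 0.0972 TPM. CDH1, the epithelial cadherin, averaged 7.01 TPM in labelled resistant HT-29 and 7.02 TPM in resistant HCT-116, against 26.4 TPM in sensitive HCT-116, and VIM 10.9 and 9.90 TPM against 5.73 TPM. The libraries of the resistant populations overlapped for both genes, with log2 fold changes of -0.29 and 0.15.

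**Figure D2:**
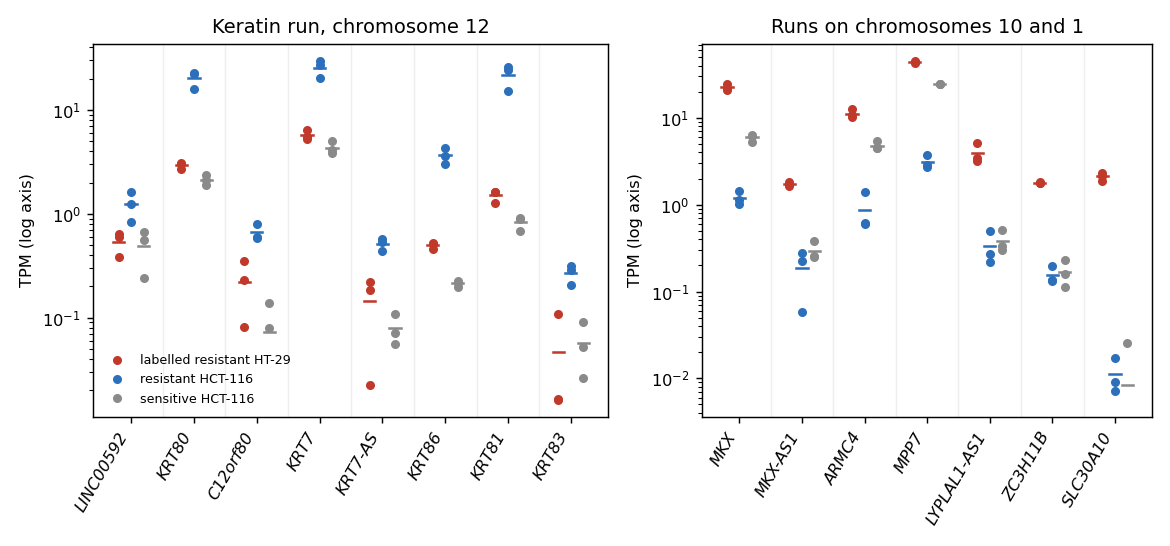
TPM (log axis) per uracil library of the adjacent called genes on chromosome 12 (left) and on chromosomes 10 and 1 (right), in genomic order; points are libraries, bars are means of 3, and libraries at 0 TPM are not drawn. On the left the blue points (resistant HCT-116) stand above red (labelled resistant HT-29) and grey (sensitive HCT-116), and on the right the red points stand above the other 2 groups.

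Adjacent genes also moved together in the higher direction. On chromosome 10, MKX, its antisense partner MKX-AS1, ARMC4 and MPP7 were 4 neighbouring called genes between positions 27672874 and 28334486. MKX, a homeobox gene known for tendon development, was at 21.2, 24.4 and 21.9 TPM in labelled resistant HT-29 and at 1.14, 1.01 and 1.45 TPM in resistant HCT-116, with 5.96 TPM in sensitive HCT-116. ARMC4, which encodes an armadillo repeat protein of motile cilia, was at 12.6, 10.7 and 10.2 TPM against 0.617, 0.596 and 1.39 TPM. MPP7, a scaffold protein of epithelial polarity, was at 45.8, 43.9 and 43.1 TPM against 2.88, 2.72 and 3.72 TPM. Their log2 fold changes were 4.05 ± 0.10, 3.58 ± 0.11 and 3.69 ± 0.08. Sensitive HCT-116 lay between the populations for all 3 genes, with 4.76 TPM for ARMC4 and 24.5 TPM for MPP7.

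The promoters of MKX and MPP7 are given because these neighbouring genes moved together. The windows are chr10:27745770-27746069 and chr10:28303015-28303314 (minus strand, RefSeq, GRCh38.p14), with CG dinucleotides in capitals.
MKX: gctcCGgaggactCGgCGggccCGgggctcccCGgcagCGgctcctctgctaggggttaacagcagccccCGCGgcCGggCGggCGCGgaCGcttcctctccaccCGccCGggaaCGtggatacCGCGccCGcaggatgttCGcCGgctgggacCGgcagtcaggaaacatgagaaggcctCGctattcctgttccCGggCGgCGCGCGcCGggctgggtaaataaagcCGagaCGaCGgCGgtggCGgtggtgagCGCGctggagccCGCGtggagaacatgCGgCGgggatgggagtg
MPP7: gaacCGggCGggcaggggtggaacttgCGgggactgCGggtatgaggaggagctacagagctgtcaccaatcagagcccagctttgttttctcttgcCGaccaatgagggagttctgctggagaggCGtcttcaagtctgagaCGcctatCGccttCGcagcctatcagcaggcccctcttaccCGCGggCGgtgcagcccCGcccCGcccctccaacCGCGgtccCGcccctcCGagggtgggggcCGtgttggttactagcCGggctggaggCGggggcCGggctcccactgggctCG
They hold 40 and 23 CG dinucleotides, and neither is CG-poor by the standard of the tested genes.

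On chromosome 1, SLC30A10, ZC3H11B and LYPLAL1-AS1 were neighbours that only labelled resistant HT-29 expressed above trace levels. SLC30A10, a manganese efflux transporter, held 332 counts over the 3 labelled resistant HT-29 libraries and 4 over the 3 resistant HCT-116 libraries. Relative to library totals this is a ratio of 94.9, with a 95% exact interval from 36.7 to 350.5 that covers counting error only. Its level was 1.89, 2.32 and 2.17 TPM in labelled resistant HT-29 and 0.00841 TPM on average in sensitive HCT-116. ZC3H11B averaged 1.80, 0.154 and 0.168 TPM in labelled resistant HT-29, resistant HCT-116 and sensitive HCT-116, and LYPLAL1-AS1 3.94, 0.33 and 0.381 TPM. These genes were chosen after their values were seen.

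Some WNT pathway genes were higher in labelled resistant HT-29 than in resistant HCT-116. In this pathway beta-catenin and TCF factors switch on target genes that include their own inhibitors, and HCT-116 carries an activating beta-catenin mutation. Of 27 WNT targets and intestinal stem genes tested, 8 were higher and 1 was lower in labelled resistant HT-29 (33.3% called). In all, 19 lay above 0, and the list's median log2 fold change was 0.22. Against sensitive HCT-116 the list median was -0.18 for labelled resistant HT-29 and -0.72 for resistant HCT-116. RNF43, a ubiquitin ligase that removes WNT receptors, was at 8.92, 8.51 and 9.83 TPM against 1.06, 0.997 and 1.43 TPM, a log2 fold change of 2.75 ± 0.08 (edgeR adjusted p = 8.36e-22), and sensitive HCT-116 held 12.7 TPM. NKD1, a feedback inhibitor that binds Dishevelled, was at 8.46, 8.35 and 6.12 TPM against 2.11, 1.398 and 1.22 TPM, with 4.35 TPM in sensitive HCT-116. Its paralog NKD2 averaged 38.5 against 14.6 TPM, and AXIN2, the standard feedback target, 15.9 against 6.01 TPM.

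The receptor LGR4, which binds R-spondins, averaged 12.01 against 4.66 TPM, and EPHB2, a crypt receptor kinase, 7.92 against 3.01 TPM. TNFRSF19, a stem cell receptor, was under 1 TPM in both populations but higher in labelled resistant HT-29, and ID2 is described above. BMP4, a ligand that opposes WNT-driven stemness in the gut, was the 1 lower member, at 118, 124 and 123.2 TPM against 346, 342 and 445 TPM, a log2 fold change of -1.71 ± 0.08. No gene named here overlapped between the populations, which adds little, since all were called on the same libraries. Without replicate 3 of resistant HCT-116 the count was 9 higher and 1 lower of 29, and the median was 0.54.

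Most hypoxia-induced genes lay above 0, though few passed the 2-fold limit. Cells at low oxygen stabilise HIF factors, which switch on genes of glycolysis, pH control and mitochondrial turnover. Of 28 hypoxia-induced genes tested, 5 were higher and none was lower, 25 had a log2 fold change above 0, and the median was 0.51. Over all genes tested, 48.9% were above 0. CA9, a membrane carbonic anhydrase, was at 2.95, 4.25 and 6.25 TPM in labelled resistant HT-29 and at 0.821, 1.23 and 2.00 TPM in resistant HCT-116, a log2 fold change of 2.51 ± 0.23 (edgeR adjusted p = 6.78e-10). With transcript-length offsets the log2 fold change of CA9 was 1.68, and the call held. BNIP3, a mitophagy receptor, was at 59.4, 61.4 and 63.2 TPM against 18.3, 18.6 and 22.9 TPM, with 80.2 TPM in sensitive HCT-116. NDRG1 (66.2 against 23.3 TPM), the BNIP3 paralog BNIP3L (46.9 against 17.6 TPM) and PDK1, which restrains pyruvate entry into mitochondria (15.2 against 7.17 TPM), were the other called members. VEGFA, the angiogenic growth factor, differed by 0.88 ± 0.04 on the log2 scale and stayed under the limit, as did LDHA at 0.31.

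Except for CA9 and VEGFA, each of these genes was below sensitive HCT-116 in both resistant populations; NDRG1 was at 224.5 TPM there. Without replicate 3 of resistant HCT-116, 8 of the 28 were higher. Under 5-FU 1 member was called higher, and under 5-FU with irradiation 4 were, and the log2 fold change of CA9 was 0.93 and 1.11 in these conditions.

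The promoters of CA9 and BNIP3 are shown because HIF factors are known to bind sites with the core ACGTG. The letters ACGTG were searched on both strands and are in capitals in these windows, chr9:35673678-35673977 (plus strand) and chr10:131981874-131982173 (minus strand).
CA9: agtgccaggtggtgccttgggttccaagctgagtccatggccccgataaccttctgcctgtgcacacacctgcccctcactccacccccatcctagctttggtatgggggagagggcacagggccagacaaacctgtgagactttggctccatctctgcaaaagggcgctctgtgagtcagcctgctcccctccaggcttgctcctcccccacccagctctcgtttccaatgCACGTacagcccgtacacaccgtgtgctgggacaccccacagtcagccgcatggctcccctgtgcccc
BNIP3: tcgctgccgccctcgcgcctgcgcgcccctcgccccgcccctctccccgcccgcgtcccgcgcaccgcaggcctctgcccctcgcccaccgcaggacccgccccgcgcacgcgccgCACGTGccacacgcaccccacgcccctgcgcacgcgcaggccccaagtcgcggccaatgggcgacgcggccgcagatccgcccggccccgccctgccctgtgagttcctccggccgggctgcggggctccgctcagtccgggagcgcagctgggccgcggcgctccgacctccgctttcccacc
CA9 had 1 match, starting 18 bases before the start site. BNIP3 had 2 matches on opposite strands that overlap in 1 run, starting 134 and 133 bases before the start. The window of PDK1, also called higher, was searched in the same way and had 0 matches. The core was present in 14 of the 24 listed genes with a promoter in the table (58.3%), in 25.5% of all tested genes with one, and in 21.6% of all 27195 promoters of the same length. The list holds genes known to be induced by hypoxia, and most were not called, so its share does not describe the genes that differed. A match is a description of letters and not of binding.

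Some EGFR ligands and MAPK response genes were also higher. Of 32 EGFR ligands and MAPK feedback genes tested, 5 were higher and 1 was lower (18.75% called; 2 and 2 under 5-FU), and the median log2 fold change was 0.24. EGR1, an immediate early transcription factor, was at 40.6, 40.8 and 44.3 TPM in labelled resistant HT-29 and at 5.51, 6.10 and 14.6 TPM in resistant HCT-116, against 69.2 TPM in sensitive HCT-116. EREG, the EGFR ligand epiregulin, was at 305, 303 and 290 TPM against 112, 116 and 138 TPM, and here sensitive HCT-116 was low at 101.5 TPM. SPRY4 and SPRY1, which restrain receptor kinase signalling, averaged 78.5 against 34.5 TPM and 8.60 against 3.81 TPM, and FOS 4.69 against 2.09 TPM. EGF itself was the lower member, with 0.778 against 1.58 TPM. Replicate 3 of resistant HCT-116 was the highest of its group for EGR1, EREG, SPRY4, SPRY1 and FOS. Without it 6 members were higher and none was lower. DUSP6 (0.75) and DUSP4 (-0.93), phosphatases that inactivate ERK, differed in opposite directions under the limit.

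Nearly all sterol synthesis genes lay below 0, with 1 large exception. Of 33 cholesterol and fatty acid synthesis genes tested, 32 had a log2 fold change below 0 in uracil, mostly small, and the median was -0.33. The list median was nearer to 0 in the other treatments, at -0.08 under 5-FU and -0.14 under 5-FU with irradiation. HMGCS1, which makes the substrate of HMG-CoA reductase, was called lower with a log2 fold change of -1.08 ± 0.16, but the resistant HCT-116 libraries were at 156, 152 and 75 TPM against 66.8, 66.2 and 63.4 TPM. It lost the call when replicate 1 or replicate 2 of resistant HCT-116 was left out (-0.90 and -0.95). Under 5-FU and under 5-FU with irradiation the log2 fold change of HMGCS1 was -0.30 and -0.58. SQLE, squalene epoxidase, a rate-limiting step of the same pathway, was the only member above 0. It was at 10.7, 10.7 and 10.6 TPM in labelled resistant HT-29 and at 1.57, 2.32 and 3.76 TPM in resistant HCT-116, and both were far below the 55.6 ± 0.8 TPM (SD, n = 3) of sensitive HCT-116. Its log2 fold change was 2.31 ± 0.16 (edgeR adjusted p = 8.22e-13).

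Of 29 ATF4 targets, which respond to amino acid shortage and endoplasmic reticulum stress, 2 were higher and none was lower (6.90% called), and 24 lay above 0 with a median of 0.32. STC2, a secreted glycoprotein, averaged 68.4 against 28.3 TPM and CHAC1, which degrades glutathione, 9.48 against 3.94 TPM. ASNS, DDIT3 and PSAT1 lay under the limit at 0.77, 0.86 and 0.32 on the log2 scale. Under 5-FU 3 list members were higher and 1 was lower, and under 5-FU with irradiation none was called. The list medians there were 0.35 and 0.25.

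**Figure D3:**
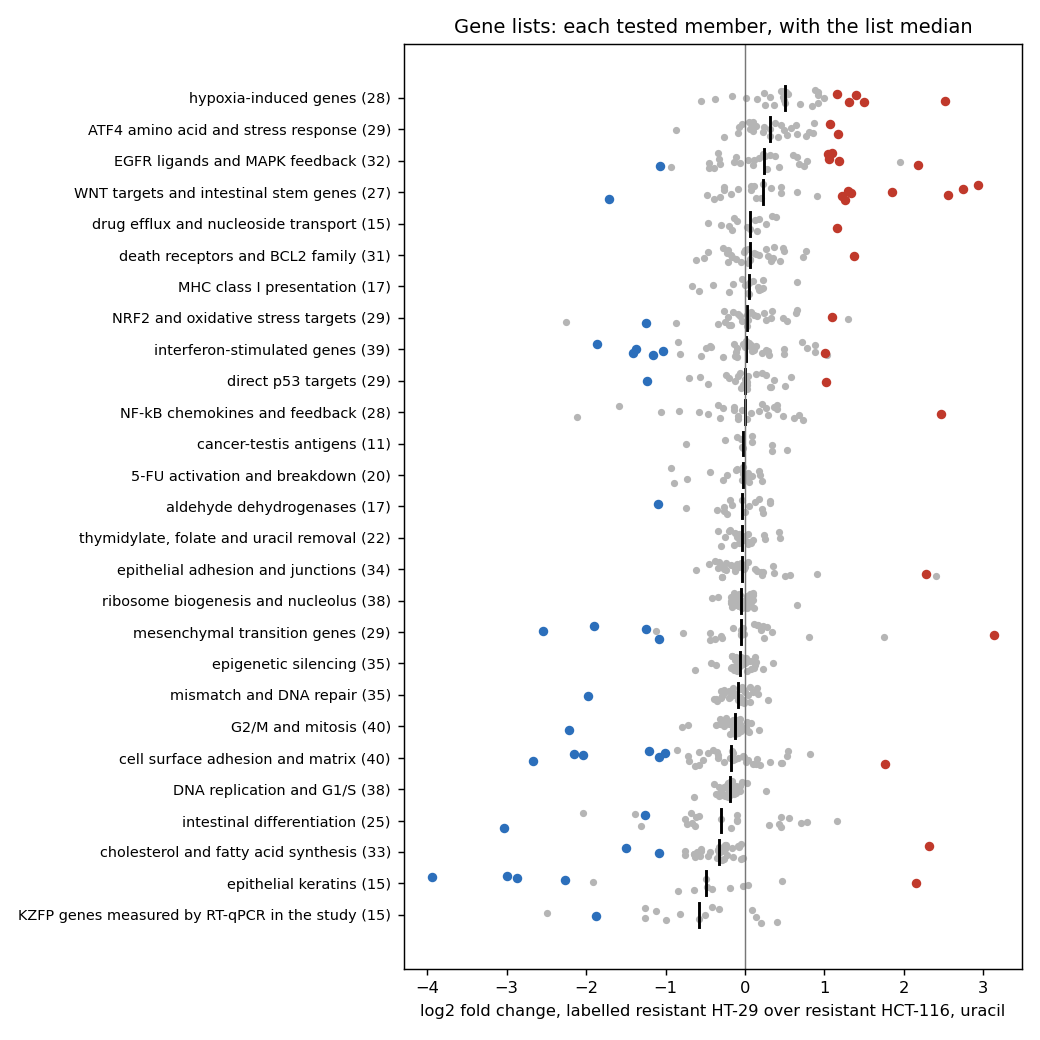
Log2 fold change (labelled resistant HT-29 over resistant HCT-116, uracil) of each tested member of 27 gene lists, with the number tested in brackets and the list median as a black bar; red and blue points are called higher and lower, grey points are not called. The hypoxia list has the highest median (0.51), and the 5-FU, thymidylate and epigenetic lists have medians near 0 and no called member.

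Genes of 5-FU handling held no call in uracil. None of 20 genes of 5-FU activation and breakdown and none of 22 thymidylate, folate and uracil removal genes was called by edgeR in uracil or under 5-FU, 1 of the first list was lower under 5-FU with irradiation, and the list medians in uracil were -0.03 and -0.04. TYMS, the target of the drug, was at 340, 343 and 324 TPM in labelled resistant HT-29 and at 369, 360 and 361 TPM in resistant HCT-116, a log2 fold change of -0.20 ± 0.04, and sensitive HCT-116 held 293.5 TPM. UMPS and UPP1, enzymes on the routes from 5-FU to its nucleotides, overlapped between the populations with means of 51.9 and 53.2 TPM and of 42.3 and 41.6 TPM. DPYD, which degrades 5-FU, was near 1 TPM in both (0.788 against 1.09 TPM, log2 fold change -0.72), and TYMP differed by -0.43. Of 15 drug efflux and nucleoside transport genes, ABCC11 alone was called, at 0.41 against 0.149 TPM (log2 fold change 1.16). It lost the call with transcript-length offsets and without replicate 2 of labelled resistant HT-29, and its log2 fold change was 0.27 under 5-FU and 0.26 with irradiation.

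The proliferation lists held 1 called gene and had medians slightly below 0. Of 38 DNA replication genes 36 lay at or below 0, with a median of -0.19 and no call, and of 40 G2/M genes 1 was called with a median of -0.13. That gene was CDC25C, the phosphatase that activates CDK1 at mitotic entry, at 0.59, 0.302 and 0.508 TPM against 1.69, 2.19 and 2.88 TPM. Both were far below the 17.3 ± 0.7 TPM (SD, n = 3) of sensitive HCT-116. MLH3, a mismatch repair gene, was the 1 called member of 35 repair genes, at 0.957, 2.35 and 1.72 TPM against 5.91, 5.52 and 7.25 TPM, with 11.01 TPM in sensitive HCT-116. No gene was called among 35 epigenetic silencing genes, 38 ribosome biogenesis genes, 17 MHC class I genes and 11 cancer-testis antigens. Without replicate 3 of resistant HCT-116, 1 MHC class I gene was called higher. TRIM28, the KZFP corepressor, averaged 1056 against 1162 TPM.

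Direct p53 targets were balanced. Of 29 tested, PLK2 was lower (34.2, 35.4 and 34.0 against 68.3, 68.3 and 68.3 TPM) and GDF15 was higher (529.6, 553 and 559 against 195, 204.5 and 361 TPM), and the median was 0.00. GDF15, a stress cytokine, lay at the 2-fold limit and lost its call in 3 of the 6 fits that left out 1 library. CDKN1A and MDM2 had log2 fold changes of -0.03 and 0.03. Of 39 interferon-stimulated genes 5 were lower (SAMD9, IFI35, IRF7, HERC5 and IFIT3) and 1 was higher (IFI44), all below 12 TPM, with a median of 0.02. Their log2 fold changes ran from -1.86 for SAMD9 to 1.01 for IFI44. Without replicate 3 of resistant HCT-116, 4 interferon-stimulated genes were lower and 2 were higher. In the NF-kB list CXCL8, a neutrophil chemokine, was the 1 called member of 28, at 15.1, 15.3 and 15.4 TPM against 2.80, 2.88 and 2.92 TPM. NQO1, a quinone reductase and NRF2 target, was higher at 545 against 242 TPM, while AKR1C1, under 1 TPM in both, was lower with overlapping libraries and lost its call with transcript-length offsets. The remaining called list members were CLDN2 of 34 junction genes (3 were called without replicate 3 of resistant HCT-116), BMF of 31 death receptor and BCL2 family genes (both higher), and ALDH3B1 of 17 aldehyde dehydrogenases, MUC2 and ALPP of 25 intestinal differentiation genes (all lower).

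The KZFP family was largely alike in the 2 populations. Of 365 KZFP genes in the deposited table, 299 were tested, 8 were higher and 4 were lower in labelled resistant HT-29 (4.01% called, against 3.72% of all genes), and the median log2 fold change was 0.10. The summed level of the family was 1804 to 1815 TPM in labelled resistant HT-29, 1501 to 1546 TPM in resistant HCT-116 and 1650 to 1716 TPM in sensitive HCT-116, so the populations did not overlap and lay on either side of the sensitive cells. Of 222 KZFP genes that averaged at least 1 TPM in sensitive HCT-116, 38 averaged less than 1 TPM in both resistant populations and 181 stayed at 1 TPM or more in both. None was below 1 TPM in labelled resistant HT-29 alone. ZNF44, ZNF525 and ZNF675 were below it in resistant HCT-116 alone.

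ZNF675, in the 19p12 cluster, was at 3.38, 3.45 and 3.43 TPM in labelled resistant HT-29 and at 0.346, 0.265 and 0.454 TPM in resistant HCT-116, against 2.90 ± 0.60 TPM (SD, n = 3) in sensitive HCT-116. Its log2 fold change was 3.35 ± 0.18 (edgeR adjusted p = 2.08e-15). ZNF44 was at 1.93, 2.06 and 1.51 TPM against 0.195, 0.243 and 0.251 TPM, with 2.13 TPM in sensitive HCT-116. ZNF160 averaged 12.8 ± 0.58 TPM against 3.64 ± 0.23 TPM (SD, n = 3), with 13.9 TPM in sensitive HCT-116. In all 3 genes labelled resistant HT-29 stayed at about the sensitive level and resistant HCT-116 did not.

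The promoters of ZNF675 and ZNF44 (chr19:23687163-23687462 and chr19:12294834-12295133, minus strand, RefSeq, GRCh38.p14) are shown as those of the KZFP genes low in resistant HCT-116 alone, with CG dinucleotides in capitals.
ZNF675: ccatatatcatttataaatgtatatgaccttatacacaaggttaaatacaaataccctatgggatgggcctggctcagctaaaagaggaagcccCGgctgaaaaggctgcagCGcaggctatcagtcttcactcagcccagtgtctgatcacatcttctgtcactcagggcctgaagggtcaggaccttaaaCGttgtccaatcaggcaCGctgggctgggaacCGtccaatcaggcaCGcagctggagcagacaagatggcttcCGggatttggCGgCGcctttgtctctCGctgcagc
ZNF44: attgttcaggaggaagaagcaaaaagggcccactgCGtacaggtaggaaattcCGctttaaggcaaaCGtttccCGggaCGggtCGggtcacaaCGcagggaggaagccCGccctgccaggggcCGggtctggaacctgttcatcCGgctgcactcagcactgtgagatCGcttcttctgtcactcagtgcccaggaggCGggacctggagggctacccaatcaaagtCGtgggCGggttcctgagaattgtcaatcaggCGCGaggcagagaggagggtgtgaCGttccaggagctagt
They hold 10 and 17 CG dinucleotides, and the median of the 258 KZFP genes with a promoter in the table was 20.

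ZNF611 and ZNF14 averaged 5.16 against 2.35 TPM and 4.63 against 1.66 TPM, and the remaining higher members were ZNF525, ZNF888 and ZNF548. Of the 8 higher genes, ZNF160, ZNF525, ZNF611 and ZNF888 belong to the cluster at 19q13.41, where 30 members were tested and none was called lower. The cluster as a whole did not shift, with 14 of the 30 above 0 and a median log2 fold change of -0.05. ZNF480 was lower under the 2-fold limit, at 5.07 against 7.12 TPM (log2 fold change -0.70). Other members of the cluster were low in both populations: ZNF28, ZNF468, ZNF600 and ZNF845 averaged 2.26 to 9.58 TPM in sensitive HCT-116 and under 1 TPM in both resistant populations. KZFP genes of a cluster share sequence, and kallisto divides their reads by estimate. With transcript-length offsets the log2 fold change of ZNF525 was 1.76 in place of 3.21, and that of ZNF611 was 1.04 in place of 1.77. The 4 lower members, ZNF669, ZNF559, ZNF566 and ZNF268, were under 1 TPM in both resistant populations and between 3.39 and 8.37 TPM in sensitive HCT-116.

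**Figure D4:**
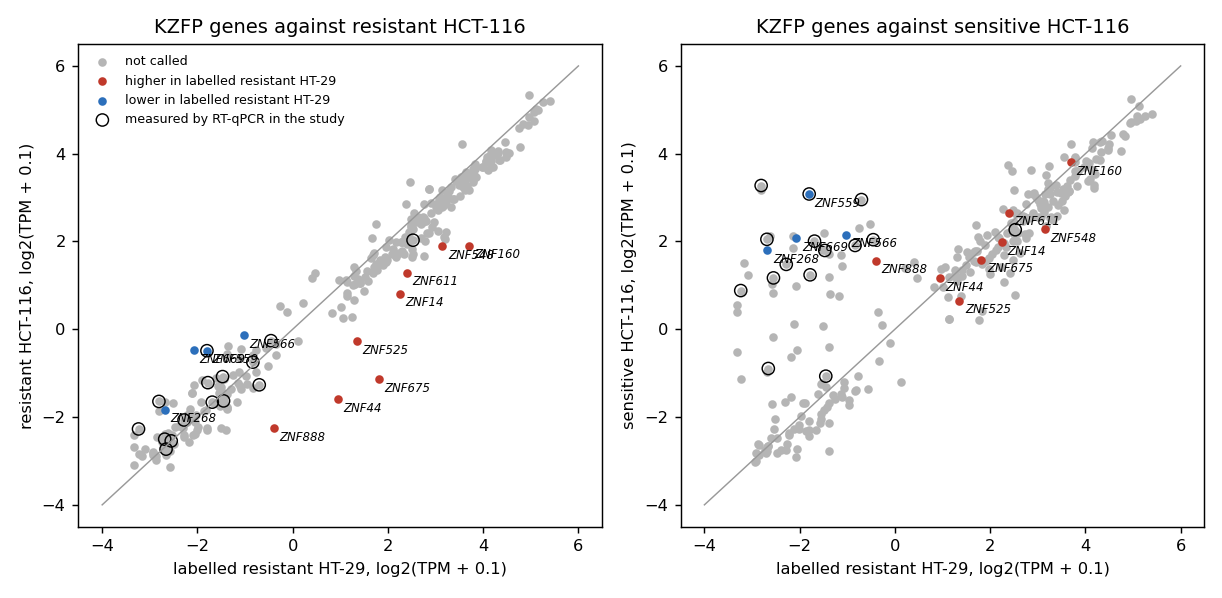
Mean level of each tested KZFP gene, log2(TPM + 0.1), in labelled resistant HT-29 (x axis) against resistant HCT-116 (left, y axis) and sensitive HCT-116 (right, y axis), with the line of equality; red and blue are the 8 higher and 4 lower genes, and rings mark the genes measured by RT-qPCR in the study. On the left nearly all genes lie along the line, and on the right a group of genes at 1 TPM or more in sensitive HCT-116 lies at the low end of the x axis.

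A subset of KZFP genes was measured by RT-qPCR in the study, which chose it from these samples, so it is no independent evidence of direction. Among these 15 genes ZNF559 was the 1 called member, and the list median was -0.58 (-0.23 without replicate 3 of resistant HCT-116). ZNF559 was at 0.16, 0.256 and 0.146 TPM in labelled resistant HT-29 and at 0.302, 0.771 and 0.766 TPM in resistant HCT-116, against 8.37 TPM in sensitive HCT-116. ZNF649 was at 0.0708 and 0.0716 TPM on average in the resistant populations and at 2.15 TPM in sensitive HCT-116, with 0 to 6 counts per resistant library, so a difference between the populations was not detectable at this depth. ZNF28 was likewise at 3 to 22 counts per library.

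The primers of ZNF559 and ZNF649 show which transcripts these measurements could reach, 5′ to 3′.
ZNF559 forward: tgtggctgtggacttcaccca
ZNF559 reverse: caccacactggatgttttcccct
ZNF649 forward: ccagtgccggggtttaagggc
ZNF649 reverse: tgaactctcttgcttctggggagc
In GENCODE 44 transcripts the ZNF649 primers matched that gene alone. The ZNF559 forward primer matched transcripts of 4 genes (ZNF559, the read-through ZNF559-ZNF177, ZNF426 and ZNF74) and its reverse primer those of ZNF559 and the read-through only.

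Outside chromosome 19, 5 of the 7 tested KZFP genes of the small cluster at 7q11.21 lay higher in labelled resistant HT-29 without passing the 2-fold limit. ZNF680 (9.12 against 4.07 TPM), ZNF138 (9.19 against 4.52 TPM), ZNF107, ZNF273 and ZNF92 had log2 fold changes from 0.34 to 0.99, and ZNF727 and ZNF736, under 1 TPM in both populations, were at -0.28 and -0.64. The window chr7:60000001-65000000 that holds most of them had the highest median of 507 windows of 5 Mb with at least 10 tested genes, 0.66 over 11 genes. ERV3-1, an endogenous retroviral envelope gene, and ZNF117, which overlaps it on the same strand, were called in this window. ERV3-1 was at 15.0, 11.8 and 14.1 TPM against 3.41, 3.57 and 4.80 TPM, and ZNF117 averaged 7.14 against 1.71 TPM, with 5.00 and 2.00 TPM in sensitive HCT-116. Reads of this pair could be divided between them only by estimate.

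The lowest window median, -0.44 over 23 genes, was that of chr5:115000001-120000000. It holds HSD17B4 and, at its other end, the neighbours TMED7, ATG12, AP3S1 and ARL14EPL, which had log2 fold changes from -1.13 (ATG12) to -0.75 (AP3S1). ATG12, an autophagy conjugation protein, was at 163, 160 and 162 TPM in labelled resistant HT-29 and at 328, 325 and 320 TPM in resistant HCT-116, against 87.3 TPM in sensitive HCT-116. Both populations were above sensitive HCT-116 here, resistant HCT-116 by more. Whole chromosomes hardly shifted: medians of the nuclear chromosomes lay between -0.03 and 0.03, and that of the 36 mitochondrial genes tested was -0.26 with none called. DNA copy number was not measured.

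Most genes called in uracil were also called in each of the other treatments, which used separate libraries of the same populations. Under 5-FU 886 genes were called (3.75% of those tested) and under 5-FU with irradiation 871 (3.69%). Of the 438 genes higher in uracil, 312 (71.2%) were also called higher under 5-FU, which is 77.0% of the 405 called there. Of the 439 lower genes 297 (67.7%) were called lower under 5-FU, 61.7% of the 481 called there. With irradiation the numbers were 317 higher (70.9% of 447) and 278 lower (65.6% of 424). No gene was called in opposite directions. In all, 522 genes were called in the same direction in the 3 conditions, 274 higher and 248 lower. SWAP70 had log2 fold changes of -6.46, -6.46 and -5.97 in uracil, 5-FU and 5-FU with irradiation, MKX 4.05, 4.16 and 3.89, and KRT81 -3.94, -3.49 and -4.25.

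**Figure D5:**
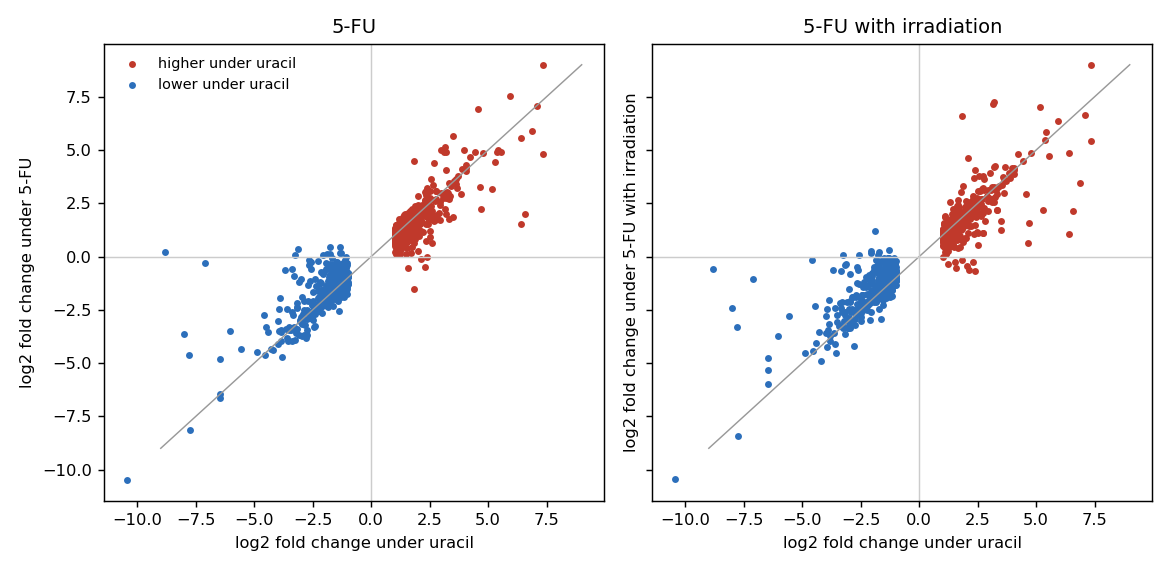
Log2 fold change of each gene called in uracil (x axis) against its value under 5-FU (left) or 5-FU with irradiation (right), each from its own libraries, with the line of equality; red and blue are genes higher and lower in uracil. Of the 438 red and 439 blue genes, 433 and 429 kept their sign under 5-FU.

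A response to 5-FU itself was not detected for single genes in either population. No gene was called by edgeR for 5-FU against uracil in labelled resistant HT-29 or in resistant HCT-116. Of 23596 genes tested, 1085 and 2231 had an unadjusted p under 0.05 with edgeR in this order. These counts do not show that the response was small, since the sizes of the changes were not summarised. The paper also maintained its resistant cells in 5-FU at a higher concentration than the dose given here. The difference between the 2 responses passed an adjusted p of 0.01 for 0 genes with edgeR and for 1 gene with DESeq2, and 1576 genes had an unadjusted p under 0.05 with edgeR. The count depended on the filter: with no filter on low counts edgeR gave 149 genes, among them ID2 (difference of 1.08 on the log2 scale), CA9 (-1.57), NDRG1 (-0.63) and HMGCS1 (0.79), which the fit with the filter did not call.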

How the data were processed

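Poly(A) RNA was sequenced as paired directional libraries. Per the labels and methods, the authors trimmed reads with Trimmomatic 0.36, quantified them with kallisto 0.44.0 on Ensembl 98 transcripts of GRCh38, and deposited estimated counts and TPM, summed per gene. TPM were deposited as computed by kallisto, corrected for transcript length and depth. Estimated counts were rounded. The 27 libraries of sensitive HCT-116, resistant HCT-116 and labelled resistant HT-29 (3 conditions each) were fitted together in edgeR 4.0.16 (R 4.3.3, TMM, filterByExpr, quasi-likelihood test, Benjamini-Hochberg adjustment), with 18 residual degrees of freedom. Fold changes are labelled resistant HT-29 over resistant HCT-116, and standard errors are the log2 fold change divided by the root of its F statistic. The fit was tested on simulated data. Gene names were those of the deposited tables, of which 37797 of 59368 matched GENCODE 44. KZFP genes were found with HMMER 3.4. Named genes were the 12 per direction with the largest difference (protein-coding, at least 10 TPM, no overlap), up to 4 called members per list, and 6 KZFP genes per direction (at least 1 TPM) plus the RT-qPCR genes. Genes outside this rule (other list members, neighbours of called genes and 19q13.41 genes) were chosen after their values were seen. A rule for genes at or under 3 counts in one population and at least 5 TPM in the other found 55 lower and 42 higher genes with at most 25 and 12 counts in the other population, which are not named. The members and lists were chosen with earlier results of these data known. Same-numbered replicates did not deviate together (r from -0.03 to 0.02). No replicate pair agreed within sampling noise. Intervals and floors cover counting error only. Some called list members are not reported here.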

Additional observations from a re-analysis of the deposited data

How the results depend on the processing

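Leaving out single libraries gave between 366 and 509 genes higher and between 381 and 421 lower in uracil, and between 8 and 10 KZFP genes higher and between 3 and 7 lower. The highest KZFP count, 7 lower, came without replicate 1 of resistant HCT-116, and 7 were also lower with no filter on low counts. Libraries were left out for the uracil comparison only. A log2 threshold of 2 left 137 higher and 140 lower genes in uracil, 125 and 153 under 5-FU, 146 and 139 with irradiation, and 3 higher and 1 lower KZFP genes. The test of the difference between the 5-FU responses gave 1 gene with DESeq2 and 149 with no filter on low counts, 142 of which had also passed the filter; the median prior degrees of freedom were then infinite, against 10.23 with the filter. In uracil, DESeq2 gave 404 higher and 400 lower genes, scaling by library size alone 468 and 404, no filter 460 and 517, a fit of the compared groups alone 395 and 354, and length offsets 397 and 369. The replicate block gave 435 and 431, 403 and 474 under 5-FU and 446 and 422 with irradiation; the same numbers do not pair the samples. Of 73 called genes checked one by one, 73 kept their direction under every alternative and 8 lost the call under at least 1 other than the log2 threshold of 2 (ABCC11, AKR1C1, BMF, EGF, GDF15, HMGCS1, IRF7 and SNAI2). Changes of sign occurred in uncalled genes only, and the cause was not tested. Without single libraries the log2 fold change ranged from -0.017 to 0.035 for NME2, -0.0066 to 0.12 for CALR, -0.0072 to 0.15 for B2M, -0.042 to 0.016 for APEX1, -0.16 to 0.78 for ZFP69B, -0.095 to 0.39 for ZNF708 and -0.99 to 0.28 for ZNF841. It was -0.012 (no filter) and -0.011 (length offsets) for NME2, 0.022 by library size for APEX1, and with length offsets -0.34 for ZNF555, -0.20 for ZNF708 and 0.021 for ZNF841. The list counts without replicate 3 of resistant HCT-116 were chosen after seeing the data. Low counts limit what can be said of genes under 1 TPM, the lower KZFP genes among them.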

Other observations

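HSD17B4 differed in the transcripts assigned to it as well as in level. Transcript ENST00000510025 took 28.5% ± 7.5 (SD, n = 3) of the gene's estimated counts in labelled resistant HT-29 and 86.6% ± 0.2 in resistant HCT-116, and ENST00000644146 took 34.3% ± 4.8 against 3.05% ± 0.35. The libraries did not overlap for either transcript. For FBLN1, ENST00000340923 took 37.2% ± 7.4 against 9.70% ± 3.6. These shares are kallisto's estimates and were not tested.

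Smaller groups of adjacent called genes were also seen, chosen after their values were seen. S100A5, S100A4 and S100A3 on chromosome 1 were lower, with log2 fold changes of -1.01, -2.55 and -1.25. HOXD-AS2, HOXD8 and HOXD3 on chromosome 2, members of a homeobox cluster that patterns the body axis, were higher at 1.18, 1.52 and 1.85. CCDC89, SYTL2 and CCDC83 on chromosome 11 were higher at 2.71, 1.67 and 1.67, and JAZF1, CREB5 and CPVL on chromosome 7 at 1.17, 1.56 and 1.01.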
